A study of Danio rerio with 4 samples.

Results

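The transcripts described here are those of genes that neurons use to release transmitter and to build axons, as they were recovered in nuclear RNA from the heads of zebrafish larvae at 5 dpf. The starting list held 9 names (snap25a, snap25b, syt1a, vamp2, sv2a, elavl3, elavl4, stmn1b and gap43). Every row of the deposited count table whose gene symbol carried one of these names, ignoring case and a final paralog letter, was taken, which gave 11 of the 31952 genes. The table of gene names writes some of them in capitals without a paralog letter, so 2 rows are called SNAP25 (ENSDARG00000020609 and ENSDARG00000058117), 2 rows STMN1 (ENSDARG00000004169 and ENSDARG00000033655) and 1 row SYT1 (ENSDARG00000030614). Which SNAP25 row is snap25a and which STMN1 row is stmn1b could not be told from these names. The other rows were syt1b (ENSDARG00000042350), vamp2 (ENSDARG00000056877), SV2A (ENSDARG00000059945), ELAVL3 (ENSDARG00000014420), ELAVL4 (ENSDARG00000045639) and gap43 (ENSDARG00000099744). The last letter of sv2a belongs to the gene's name, so rows for sv2, SV2B and SV2C were not taken.

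The study compared neutrophil nuclei from larvae with and without an activated NRas oncogene in melanocytes, and 2 libraries of each group were analysed here. Larvae of both groups came from a cross of 2 lines. The line labelled ox128 carried mpo:BirA-Citrine, which puts a biotin ligase under a neutrophil promoter, and also bactin:Avi-Cerulean-Rangap, a nuclear envelope tag driven by the broadly active bactin promoter, so that nuclei with both could be pulled down on streptavidin beads. The line labelled ox130, per the labels, carried kita:LexPR-Cerulean, an activator under a melanocyte promoter that needs mifepristone, together with its target PcrysB:ECFP-LexOP:mCherry-NRas, which also marks the lens. The study also names kita as the driver for this profiling. It gives the number ox130, however, to a line in which the mitfa promoter, also active in melanocytes, drives LexPR. Only the allele number is thus not settled. Controls carried all of these transgenes without the drug, whereas NRas+ larvae were kept in 1 µM mifepristone from 24 hpf, so that drug and oncogene cannot be told apart in these libraries. The study tested the drug by qPCR on nuclei from larvae with the neutrophil tag alone. It reports little or no change in the genes assayed, but no member was among them. Each library was made from pooled dissected heads.

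Neurons release transmitter when vesicles fuse with the cell membrane. Synaptobrevin on the vesicle (Vamp2) zips together with Snap25 and syntaxin on the membrane to form the SNARE complex, and synaptotagmin 1 triggers fusion when calcium enters. Elavl3 and Elavl4, also known as HuC and HuD, bind RNA in neurons from an early stage and are widely used pan-neuronal markers, while stathmin and Gap43 act on microtubules and on the growth cone of extending axons. None of these genes is a marker of neutrophils.

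Between 30619195 and 42365244 counts fell on genes in each library. The libraries are labelled as neutrophil, but 22 rows of a neutrophil marker list took only between 0.0105% and 0.0171% of the counts, and 0 of its 19 tested rows passed edgeR's threshold between the groups. Only 20 of the 25 names on that list matched a gene symbol. The gene mpx, whose promoter drove the biotin ligase, was not matched, so its counts are not in this share. The lysozyme gene lyz had 12.6 CPM in control 1, 3.002 in control 2, 10.9 in NRas+ 1 and 12.6 in NRas+ 2. Of its 22 rows, several were counted well in every library, such as srgn, the most highly counted, at 17.2 to 36.5 CPM, and CEBPA at 21.0 to 28.7 CPM. Others were not: both cxcr1 rows were at 0 in 3 of the 4 libraries, cybb was at 0 in control 1 and NRas+ 1, NCF4 in control 1, and CSF3R in NRas+ 1. A list of 32 skeletal muscle rows made up 26.9% of control 1, 18.7% of control 2, 37.7% of NRas+ 1 and 37.9% of NRas+ 2. The myelin gene mbpa, the most highly counted row of a glial list, had between 182 and 325 CPM. CPM here means the count divided by the library total and scaled by TMM, a correction for a few very abundant genes (factors between 0.861 and 1.41). In such bulk libraries fewer cells that express a gene and less RNA per cell cannot be told apart. Which cells the RNA of the members came from was not tested.

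None of the 11 members passed an adjusted p of 0.05 between NRas+ and controls. All 11 rows had enough counts for edgeR's quasi-likelihood test, and 0 of 11 passed, where 0.169% of the 20099 genes tested did (26 higher and 8 lower in NRas+, or 8 higher and 14 lower with scaling by the library total alone). At an unadjusted p under 0.05 there was 1 member, gap43, beside 11.3% of all genes. DESeq2 likewise gave 0 of 10 members past the adjusted threshold, beside 383 of 11526 genes, and gave no adjusted p for syt1b. At an unadjusted p under 0.05 DESeq2 gave 1 member, and the share of all genes at that level was not worked out. The likelihood ratio test gave 0 of 11 past the adjusted threshold, beside 230 of 20099 genes. The log2 fold change was below 0 for 9 members and above 0 for 2, with a median of -0.16, where the median of all genes tested was -0.04. Without control 1 the median was 0.16 and only 4 of the 11 lay below 0. Scaling by the library total alone moved the median of the members to -0.46 and that of all genes to -0.40. A comparison of 2 libraries with 2 cannot reach an exact two-sided permutation p below 0.333. The study describes its biological replicates as separate experiments with larvae of both conditions in each, but no label ties a library number to an experiment, so p-values measure the spread between these libraries only.

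**Figure D1:**
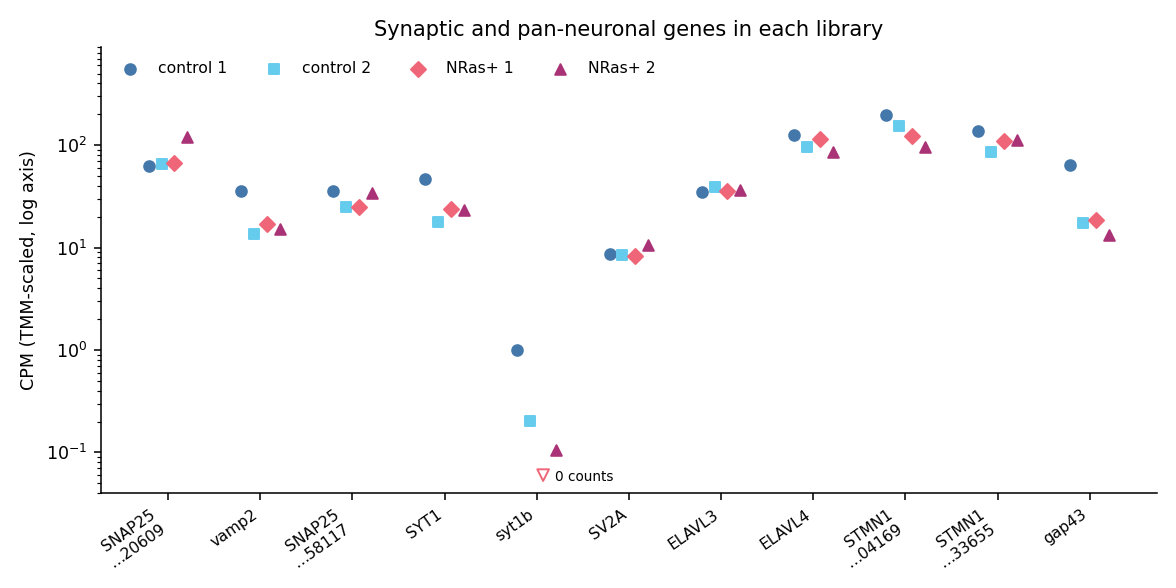
CPM of each of the 11 genes on a log axis, with 1 point per library (circles and squares are the controls, diamonds and upward triangles NRas+). The open downward triangle is a count of 0 for syt1b in NRas+ 1. Control 1 lies apart from the other 3 libraries for vamp2, SYT1 and gap43, while the points of SV2A and ELAVL3 lie close together.

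Of the SNARE genes, neither SNAP25 row nor vamp2 differed between the groups beyond the spread of the libraries. SNAP25 (ENSDARG00000020609) had 62.3 CPM in control 1, 65.9 in control 2, 67.0 in NRas+ 1 and 120.1 in NRas+ 2. Both NRas+ libraries lay above both controls, but NRas+ 1 only just, and the larger difference was between the NRas+ libraries themselves. Its log2 fold change was 0.54 ± 0.39 (SE; 95% interval from -0.27 to 1.36, edgeR adjusted p = 0.642), and it was 0.10 without NRas+ 2. SNAP25 (ENSDARG00000058117) had 35.8 and 24.9 CPM in the controls and 24.8 and 33.9 CPM in NRas+. The groups overlapped completely, with a log2 fold change of -0.04 (95% interval from -0.87 to 0.79, adjusted p = 0.987 from edgeR). For vamp2, the vesicle partner of Snap25, control 1 stood at 35.7 CPM and the other libraries at 13.5 (control 2), 17.0 (NRas+ 1) and 15.2 CPM (NRas+ 2). On this scale control 2 was the lowest of all. The mean was 24.6 ± 15.7 CPM in controls and 16.1 ± 1.299 CPM in NRas+ (SD, n = 2 each). The log2 fold change, -0.58 ± 0.47 (SE; edgeR adjusted p = 0.686), became 0.27 without control 1.

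Of the vesicle genes, SYT1 showed control 1 apart, while SV2A did not. SYT1, the calcium sensor for fusion, had 46.8 CPM in control 1 and 17.7 CPM in control 2, with 24.0 and 23.2 CPM in NRas+ 1 and NRas+ 2 between them. Its log2 fold change, -0.43 ± 0.45 (SE; edgeR adjusted p = 0.775), turned to 0.43 without control 1. The paralog syt1b was barely detected, with 27 and 11 counts in the controls and 0 and 4 counts in the NRas+ libraries. These counts did not overlap between the groups, but the row passed the filter for low counts through the controls alone. Its separation was thus fixed by the filter. The log2 fold change of -3.10 had an interval from -7.04 to 0.84 (adjusted p = 0.577 from edgeR). With so few counts its size depends on the prior count of the fit. A count of 0 allows up to 3 counts, from counting error alone. SV2A, a glycoprotein of the vesicle membrane, varied little. It was counted at 8.67, 8.44, 8.23 and 10.5 CPM in control 1, control 2, NRas+ 1 and NRas+ 2, a log2 fold change of 0.13 with a 95% interval from -0.92 to 1.19 (adjusted p = 0.960 from edgeR).

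Of the pan-neuronal RNA-binding genes, ELAVL3 was nearly level over the 4 libraries. It had 35.1 and 39.1 CPM in the controls and 35.4 and 36.3 CPM in NRas+, so that both NRas+ libraries lay between the controls. The means were 37.1 ± 2.83 and 35.8 ± 0.633 CPM (SD, n = 2 each). The fitted log2 fold change was -0.05, with a 95% interval from -0.84 to 0.73 (adjusted p = 0.981 from edgeR), which still allows NRas+ to be between 0.560 and 1.66 times the control level. ELAVL4 had 126 CPM in control 1, 95.8 in control 2, 113 in NRas+ 1 and 85.5 in NRas+ 2. Libraries of 1 group differed more than the groups did, by a factor of 1.32 in controls and 1.33 in NRas+, and the log2 fold change between groups was -0.16 (adjusted p = 0.920 from edgeR).

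Among the genes of axon growth, 1 STMN1 row and gap43 were lower on average in NRas+, without passing the threshold. Stathmin 1 binds tubulin dimers and destabilises microtubules. STMN1 (ENSDARG00000004169) had 198, 154, 124 and 94.9 CPM in control 1, control 2, NRas+ 1 and NRas+ 2. Both NRas+ libraries lay below both controls, with 176 ± 31.3 CPM in controls and 109 ± 20.5 CPM in NRas+ (SD, n = 2 each). This gave a log2 fold change of -0.68 ± 0.38 (SE; 95% interval from -1.48 to 0.11, edgeR adjusted p = 0.527). With each library left out in turn it stayed between -0.88 and -0.47. STMN1 (ENSDARG00000033655) gave 138 and 86.4 CPM in the controls and 111 and 112 CPM in NRas+. Its NRas+ libraries lay between the controls, and its log2 fold change was -0.00 (adjusted p = 0.998 from edgeR), with a sign that changed with the scaling.

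Gap43 is a protein of the growth cone membrane that neurons make while they extend or regrow axons. It was counted at 63.3 CPM in control 1 against 17.6 in control 2, 18.6 in NRas+ 1 and 13.4 in NRas+ 2. On this TMM scale control 2 lay between the NRas+ libraries, so the groups overlapped. The mean of 40.4 ± 32.3 CPM in controls against 16.0 ± 3.67 CPM in NRas+ (SD, n = 2 each) rested on control 1. The overlap depended on the scaling. With the library total alone, gap43 had 55.5 and 24.6 CPM in the controls and 16.0 and 12.6 CPM in NRas+. Both NRas+ libraries then lay below both controls, as they did for 30.3% of all genes. The log2 fold change was -1.32 ± 0.50 (SE; edgeR unadjusted p = 0.0163, adjusted p = 0.311). Although the interval for gap43 alone, from -2.37 to -0.27, did not reach 0, it takes no account of the 20099 genes tested. Without control 1 the log2 fold change was -0.13. Without control 2 it was -1.96 and the adjusted p from edgeR was 0.0232, so the call of this gene depended on which control library was kept.

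**Figure D2:**
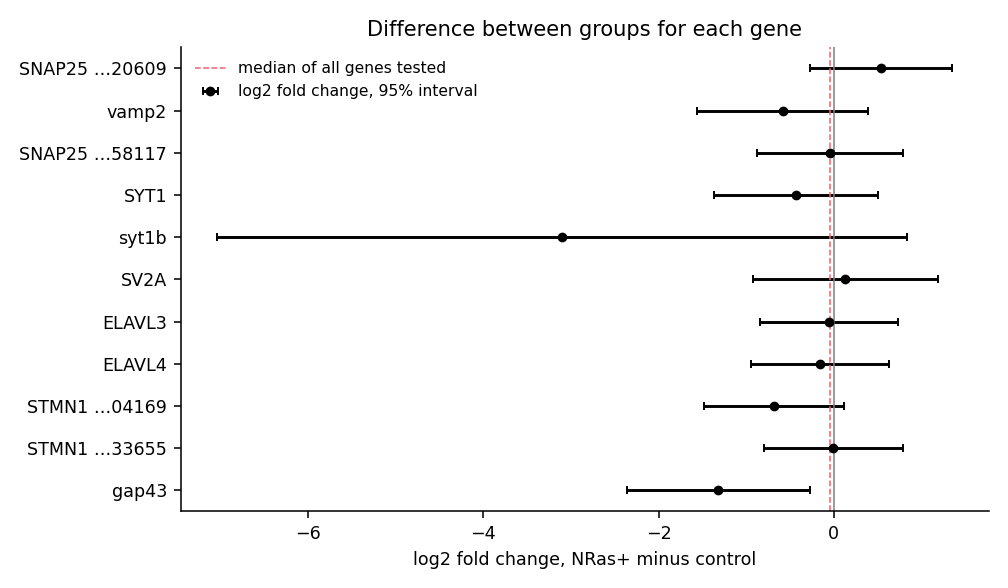
Log2 fold change of each gene (NRas+ minus control; points) with its 95% interval from edgeR (bars). The grey line marks 0 and the dashed line the median of all genes tested, -0.04. Only the interval of gap43 lies wholly to one side of 0, and that of syt1b, with 27 counts at most, is the widest.

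Separation of the groups was also looked at gene by gene. In 2 of 11 members, STMN1 (ENSDARG00000004169) and syt1b, both NRas+ libraries lay below both controls, where 21.8% of all genes did. However, syt1b passed the filter for low counts through its 2 controls alone, so its separation was fixed by the filter. Both NRas+ libraries lay above both controls in 1 of 11, SNAP25 (ENSDARG00000020609), where 20.5% of all genes did. When counts were scaled by the library total alone, 7 of 11 members had both NRas+ libraries below both controls, beside 30.3% of all genes. These were both STMN1 rows, gap43, ELAVL4, vamp2, SYT1 and syt1b, the last again fixed by the filter. On that scale vamp2 had 31.3 and 18.9 CPM in the controls against 14.6 and 14.3 CPM in NRas+. SYT1 had 41.1 and 24.8 CPM against 20.7 and 21.9 CPM. Whether these groups overlap thus depends on the scaling.

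On the TMM scale the larger contrast for several members was between the 2 controls. In 4 of the 11 (gap43, vamp2, SYT1 and syt1b), control 1 was at least 2-fold above control 2, with ratios of 3.60, 2.64, 2.65 and 4.99. Of all genes tested, 15.8% showed this in the same direction, and 42.7% differed by at least 2-fold between the controls in either direction. Among the 163 tested genes of the neuronal companion lists described below, 25.8% had control 1 at least 2-fold above control 2. ELAVL3, SV2A and SNAP25 (ENSDARG00000020609), by contrast, had control ratios of 0.898, 1.03 and 0.946. On this scale control 1 was thus set apart in some of the neuronal genes and not in others. These ratios depend on the TMM factors, 0.878 in control 1 and 1.41 in control 2. With the library total alone, controls 1 and 2 had 31.3 and 18.9 CPM of vamp2 and 41.1 and 24.8 CPM of SYT1, less than 2-fold apart. For gap43 they had 55.5 and 24.6 CPM, still more than 2-fold. ELAVL3 was then lower in control 1, at 30.8 and 54.9 CPM, as was SV2A, at 7.61 and 11.8 CPM. In control 1 gap43 made up 8.43% of all member counts, against 3.36%, 3.42% and 2.45% in control 2, NRas+ 1 and NRas+ 2. Between NRas+ 1 and NRas+ 2, syt1b alone of the members differed by 2-fold or more, where 33.9% of all genes did. What set control 1 apart was not tested.

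Ratios of counts between genes within a library do not depend on how libraries are scaled. For the SNAP25 pair, the ratio of ENSDARG00000020609 to ENSDARG00000058117 was 1.74 and 2.64 in the controls and 2.70 and 3.55 in NRas+. Both NRas+ values were above both controls, but control 2 and NRas+ 1 were nearly equal. In the STMN1 pair, the ratio of ENSDARG00000004169 to ENSDARG00000033655 was 1.44 and 1.78 in the controls and 1.12 and 0.845 in NRas+. The groups did not overlap here either, and the difference of the mean log2 ratios (NRas+ minus control) was -0.72. How often other pairs of genes separate the groups was not tested. Among single genes such separation was common, with 21.8% of all genes below and 20.5% above both controls in both NRas+ libraries. Reads of similar paralogs can be assigned to either, so such ratios carry that uncertainty, and they are not corrected for gene length. The ratio of ELAVL4 to ELAVL3 was 3.60 and 2.45 in the controls and 3.21 and 2.36 in NRas+, so the groups overlapped. For gap43 and ELAVL3 the ratio was 1.80 in control 1 and 0.449, 0.525 and 0.369 in control 2, NRas+ 1 and NRas+ 2, so the high gap43 of control 1 was present relative to a pan-neuronal gene as well.

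**Figure D3:**
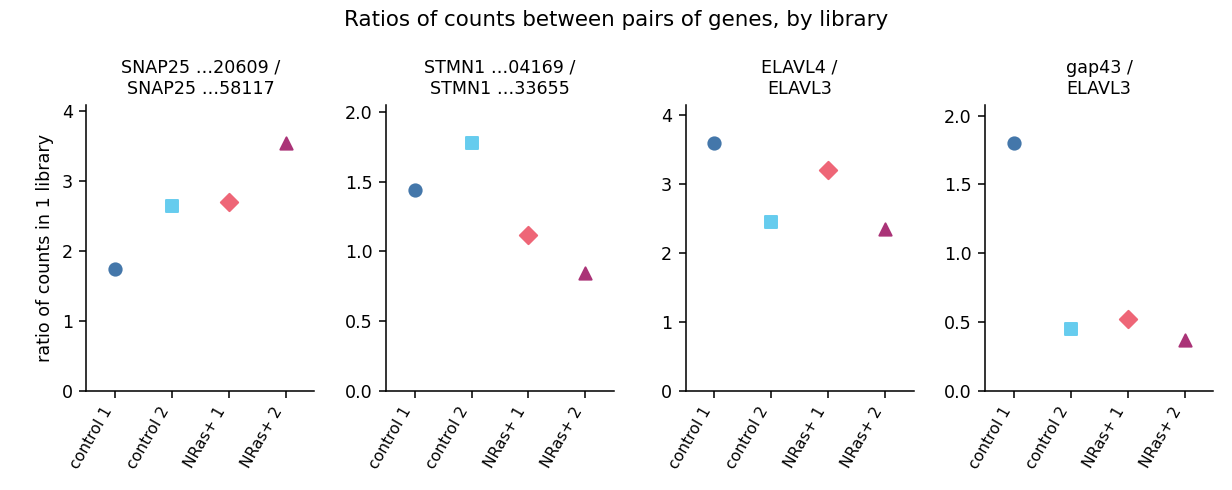
Ratio of the counts of the first to the second named gene in each library, on linear axes that start at 0. The ratios of the SNAP25 and of the STMN1 pair do not overlap between controls and NRas+, while gap43 relative to ELAVL3 is high in control 1 only. How often other pairs of genes separate the groups was not tested.

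Together the 11 members made up 0.0659% of control 1, 0.0734% of control 2, 0.0467% of NRas+ 1 and 0.0513% of NRas+ 2. The share was lower in both NRas+ libraries, by 0.0206 percentage points on average. STMN1 (ENSDARG00000004169), which may or may not be stmn1b, weighed heavily in this difference. It held 26.4% and 29.4% of member counts in the controls but only 22.8% and 17.4% in NRas+. With scaling by the library total alone, 10 members had a log2 fold change below 0 and 1 above, so other rows were lower too. How far the share differed without this STMN1 row was not tested. The skeletal muscle list took more of the NRas+ libraries, as given above. Only 28 of its 35 names matched a gene symbol, so muscle genes outside the matched rows stayed in the total. With the matched rows left out, the members made up 0.0901% and 0.0903% of the control libraries. In the NRas+ libraries they made up 0.0750% and 0.0826%, a mean difference of -0.0114 percentage points. On the TMM scale the summed level was 751 CPM in control 1 and 523, 543 and 545 CPM in control 2, NRas+ 1 and NRas+ 2, so that it no longer separated the groups.

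To place the members among other neuronal genes, 7 companion lists were read from the same fit, of which 163 rows were tested. Of these, 72 were higher and 91 lower in NRas+. Their median log2 fold change was -0.09, and 1 passed edgeR's threshold. The lists that, like the members, leaned lower were those of release, RNA binding and axon growth. The members' lean did not hold without control 1, as given above. Of the presynaptic release list 6 of 21 rows were higher and 15 lower, with a median of -0.44. At an unadjusted p under 0.05, 3 were lower, where 6.11% of all genes were. On the TMM scale its summed level was 401 and 235 CPM in the controls and 241 and 246 CPM in NRas+, with control 2 lowest. This order depended on the scaling. Of the library total the list took 0.0352% and 0.0329% in the controls and 0.0207% and 0.0232% in NRas+, lower in both NRas+ libraries. Other neuronal RNA-binding proteins had 2 of 12 rows higher and 10 lower, with a median of -0.57. Their summed level was 387 and 350 CPM in the controls and 312 and 268 CPM in NRas+. The splicing regulator RBFOX1 led this list in counts, at 87.2 and 114 CPM in the controls and 84.8 and 74.1 CPM in NRas+ (-0.34, edgeR adjusted p = 0.785). Axon growth and cytoskeleton genes had 8 of 30 rows higher and 22 lower, with a median of -0.19. Their summed level was 2092 and 1364 CPM in the controls and 1181 and 1041 CPM in NRas+. In that list 7 of 30 were lower at an unadjusted p under 0.05, beside 6.11% of all genes, and 1 was higher, beside 5.16%. The higher one, named after its values were seen, was STMN3, a stathmin relative, at 1.79 and 5.25 CPM in the controls and 18.2 and 6.89 CPM in NRas+ (1.72, edgeR adjusted p = 0.290). Its most highly counted row was marcksl1b, which encodes an actin-regulating protein related to MARCKS, at 778 and 451 CPM in the controls and 335 and 289.8 CPM in NRas+ (-0.98, edgeR adjusted p = 0.420).

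The remaining lists lay nearer to 0 or leaned higher. Synaptic vesicle genes had 12 of 27 rows higher and a median of -0.12. Postsynaptic receptors and scaffolds, a list that also held the neurexins, had 25 of 40 rows higher, 4 of them at an unadjusted p under 0.05 beside 5.16% of all genes, and a median of 0.21. Its most highly counted gene, nrxn1a, had 64.4 and 30.7 CPM in the controls and 33.8 and 43.3 CPM in NRas+ (-0.29, edgeR adjusted p = 0.846). Transmitter synthesis and transport had 7 of 13 rows higher and a median of 0.28. There ACHE, the enzyme that breaks down acetylcholine at synapses and at the neuromuscular junction, had 23.4 and 47.4 CPM in the controls and 88.8 and 108 CPM in NRas+ (1.46, edgeR adjusted p = 0.144), the same order of groups as the skeletal muscle share. Whether that share had a part in it was not tested. Ion channels had 12 of 20 rows higher and a median of 0.18, with the calcium channel gene cacna1aa at 34.3 and 31.4 CPM in the controls and 41.0 and 37.2 CPM in NRas+ (0.25, edgeR adjusted p = 0.857). Whether the lists differ from each other was not tested.

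The companion gene that passed was SNCG (ENSDARG00000034423), a gamma-synuclein gene related to the presynaptic protein alpha-synuclein, and it was higher in NRas+. It rose from 64.0 and 102.7 CPM in the controls to 477 and 327 CPM in NRas+. The groups lay far apart, at 83.4 ± 27.4 and 402 ± 106 CPM (SD, n = 2 each). The log2 fold change was 2.27 ± 0.43 (SE; edgeR adjusted p = 0.0323). Lists of some other tissues leaned in the same direction, and others lay nearer to 0. The median log2 fold change was 0.32 for glia, 0.18 for neutrophils and -0.04 for neural progenitors. For lens, with only 4 rows tested, it was 4.16, but this rested on NRas+ 2. The lens list took 0.0147% of the counts of NRas+ 2 but only 3.47e-04% of NRas+ 1. In control 1 and control 2 it took 7.54e-04% and 0.00121%. In an epidermis list 15 of 19 rows were higher in NRas+ with a median of 1.08, and 1 of them, the claudin gene cldne, passed the threshold (2.42, edgeR adjusted p = 0.0343), although the summed share of that list overlapped between the groups (0.391% and 0.283% against 0.546% and 0.259%). In the skeletal muscle list 27 of 32 rows were higher and 0 passed. The part of any of these tissues in the SNCG difference was not tested. The direction of SNCG held in all 13 alternatives, from 1.84 to 2.68, but the call was lost in 7 of them. It was lost without control 1, without NRas+ 1 and without NRas+ 2. The others were no filter (adjusted p = 0.0626 from edgeR), total scaling (0.0798), the replicate block (0.131) and edgeR's older legacy fit (0.158).

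**Figure D4:**
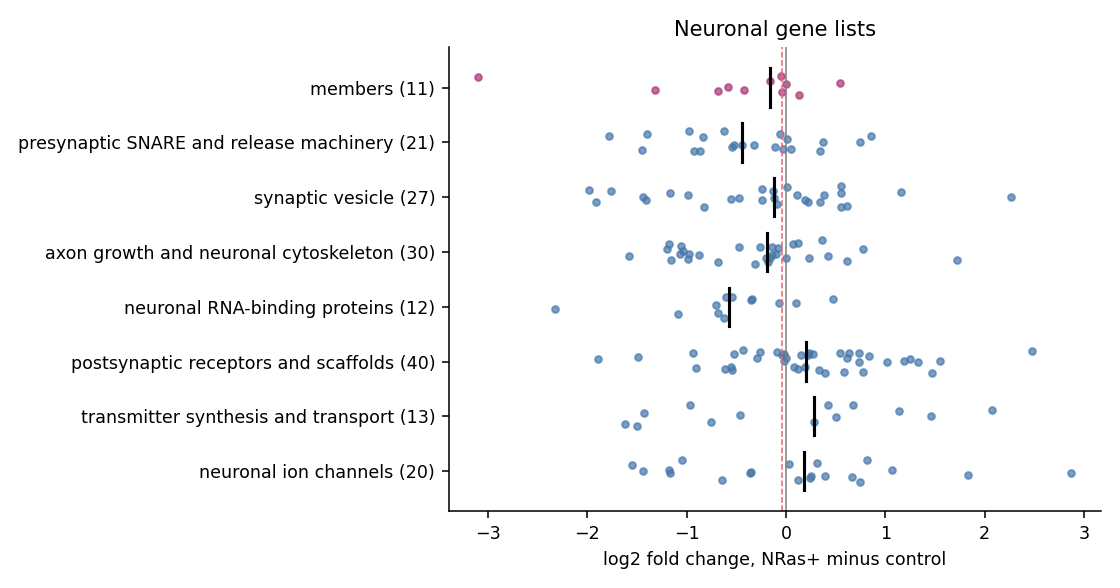
Log2 fold change (NRas+ minus control) of every tested row of the members and of the 7 companion lists, with the number of rows in brackets and a black bar at the median. The dashed line is the median of all genes tested, -0.04. The medians lie between -0.57 and 0.28, and the single point above 2 among the synaptic vesicle genes is SNCG.

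Relative to their own means, the members averaged 0.60 in control 1, -0.17 in control 2, -0.29 in NRas+ 1 and -0.13 in NRas+ 2 on the log2 CPM scale. Of 6523 other genes with a mean of at least 10 CPM, the 5 whose profile over the 4 libraries lay nearest were ankib1a, hmgb1a, SNRPD2, DDX39A and ca2, at Euclidean distances between 0.0301 and 0.0651. This profile leaned on the few counts of syt1b. Without that gene, an alternative added after the data were seen, the averages were 0.43, -0.21, -0.12 and -0.0947, and none of the 5 nearest genes was shared (0 of 5), so the nearest genes depend on 1 member.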

How the data were processed

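Nuclear RNA had been amplified with SMART-seq v4 and sequenced by the authors, who mapped reads to danRer10 with STAR 2.4.2a and used featureCounts to count them over Ensembl genes. The deposited values are raw counts, 1 column per library, and all 4 columns were matched to a library by name. The methods name standard counting parameters, while the labels give a reverse strand, so the strand setting is not settled. The Ensembl release is not given in the sources used here. For these reasons counts of overlapping and antisense genes are uncertain. Symbols came from a table that named 26121 of the 31952 genes, and no sequences or coordinates of that build were used here.

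Low counts were removed with filterByExpr, libraries scaled by TMM, and genes tested in R 4.3.3 with edgeR 4.0.16 (quasi-likelihood test with its newer fit, legacy = FALSE, Benjamini-Hochberg adjustment over all 20099 genes tested, threshold 0.05). The legacy fit, this version's default, was run first and then kept as an alternative, because earlier results of these data used the newer one. Standard errors were derived from the fold change and its F statistic. No block was fitted. Log2 CPM used a prior count of 2. The other alternatives were DESeq2 1.42.0, the likelihood ratio test, RLE or total scaling, TMM without muscle genes, other filters, the replicate number as a block and each library left out. The test was checked on simulated counts. The depth of 30619195 to 42365244 counts per library left syt1b with few counts, and since amplified reads are not independent molecules, limits from a count of 0 cover counting error only.

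The members and lists were chosen with earlier results of these data known. All members are named. Of companion lists, the most highly counted gene and any gene past the threshold are named, except that 1 gene is not reported here. Genes were matched to lists by symbol, 179 rows in the 7 neuronal lists.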

Additional observations from a re-analysis of the deposited data

How the results depend on the processing

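The number of members past the threshold was 0 in every alternative except 1, since leaving out each library in turn gave between 0 and 1, the 1 being gap43 without control 2. All genes past the threshold numbered 34. There were 230 with the likelihood ratio test, 383 in DESeq2, 10 with the legacy fit (added after the data were seen), 22 with total scaling, 21 with no filter, 152 with at least 10 counts in every library, and between 6 (without control 1) and 351 (without control 2) with 1 library left out. No label ties equal replicate numbers to 1 experiment, and differences between libraries 1 and 2 correlated by 0.147 across genes between the groups. With the replicate block 7 genes passed and no member did. The difference in summed share moved to -0.0114 percentage points without the muscle list. Near 0, STMN1 (ENSDARG00000033655) changed sign, to 0.0116 with DESeq2, 0.0148 with RLE, 0.0261 with at least 10 counts and 0.0318 with the block, and SV2A to -0.21 with total scaling. With 1 library left out, log2 fold changes spanned 0 for STMN1 (ENSDARG00000033655, -0.28 to 0.38), SNAP25 (ENSDARG00000058117, -0.27 to 0.25), SYT1 (-0.96 to 0.43), vamp2 (-1.13 to 0.27), ELAVL4 (-0.37 to 0.0669), ELAVL3 (-0.11 to 0.0508) and SV2A (-0.0205 to 0.30). The cause was not tested. With a lone library in a group, its spread is assumed to be that of the other group. Intervals near 0.8 to either side on the log2 scale limit what could be seen for the well counted members.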

Other observations

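After the values had been seen, the 7 axon growth and cytoskeleton genes that were lower at an unadjusted p under 0.05 were looked at beside gap43. They were marcksl1a, marcksl1b, the tau gene maptb and 4 neurofilament subunit genes (NEFL, nefla, nefma and nefmb). NEFL (ENSDARG00000012426) had 41.8 and 14.1 CPM in the controls and 10.7 and 7.70 CPM in NRas+, a log2 fold change of -1.58 (adjusted p = 0.220 from edgeR). The gene maptb had 78.8 and 29.1 CPM in the controls and 19.1 and 27.4 CPM in NRas+, a log2 fold change of -1.20 (adjusted p = 0.308 from edgeR). On the TMM scale all 7 were highest in control 1, as gap43 was. With the library total alone, marcksl1a and nefla were highest in control 2 instead. They had been picked as lower in NRas+, and in each both NRas+ libraries lay below both controls. The highest library was therefore bound to be a control, and a sign below 0 without control 1 was nearly fixed in advance. Without control 1 their log2 fold changes came to between -0.89 (nefla) and -0.31 (maptb). Without control 2, NEFL (-2.16) and maptb (-1.74) passed the threshold in edgeR, with adjusted p of 0.0232 and 0.0310.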
